A study of Arabidopsis thaliana with 64 samples.

Results

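The smallest seedlings of 2 inbred Arabidopsis thaliana accessions, Landsberg erecta (Ler) and C24, were compared at 15 days after sowing (DAS). The comparison used 4 of the 64 libraries of the series, 2 pools of smallest Ler against 2 pools of smallest C24 seedlings, chosen by their labels. Each pool held the aerial tissue of 5 plants, taken as the 5 smallest of a population of 50, and whether pools A and B came from separate populations is not given in the sources used here. All 4 pools grew on plates in batch 1, with no treatment or transgene given in the labels, and the p-values measure spread between pools rather than between plants. The other groups used here were untreated C24 and Ler seedlings of batch 1 (pools A and B) and of batch 2 (pools C and D, grown under another make of light tube), and the 4 largest leaves of C24 and Ler at 28 DAS from both batches. Each of these groups had 2 pools of 5 plants. In bulk tissue, fewer cells of a type and less RNA per cell cannot be told apart.

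Accessions of Arabidopsis differ in when they flower, in which glucosinolates they store and in which immune receptors they carry. FLC is a MADS-box repressor that holds back the floral activators FT and SOC1, and FRI raises its expression. Glucosinolates are sulfur-rich defence compounds made from amino acids, and myrosinases, the TGG enzymes, break them down when tissue is damaged. Reads of both accessions were mapped to the reference genome of another accession, Columbia. A low count in C24 or Ler therefore cannot be told apart from a sequence that differs from that reference.

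Sadhu elements are non-coding retroposons of Arabidopsis, and they gave some of the sharpest contrasts between the smallest seedlings. The family was chosen after its values were seen. The first 150 bases of 4 of its elements are shown because 2 of them were abundant in C24 and 2 in Ler. They are printed on the strand of the element from the RefSeq TAIR10.1 assembly, and capitals mark CAATCGTT, the 8 bases that open SADHU2-1.
SADHU2-1: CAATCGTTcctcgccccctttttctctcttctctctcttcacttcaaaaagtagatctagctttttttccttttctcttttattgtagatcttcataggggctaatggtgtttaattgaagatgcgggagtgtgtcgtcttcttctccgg
SADHU3-2: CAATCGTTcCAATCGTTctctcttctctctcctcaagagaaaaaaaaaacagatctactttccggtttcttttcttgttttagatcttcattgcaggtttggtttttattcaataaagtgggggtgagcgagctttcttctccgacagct
SADHU4-1: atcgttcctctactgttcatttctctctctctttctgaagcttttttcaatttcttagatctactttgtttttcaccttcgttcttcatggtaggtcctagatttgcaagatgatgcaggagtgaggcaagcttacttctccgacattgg
SADHU6-1: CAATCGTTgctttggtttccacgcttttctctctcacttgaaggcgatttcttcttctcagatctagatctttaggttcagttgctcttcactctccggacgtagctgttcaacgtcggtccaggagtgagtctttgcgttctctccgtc
The stretches lie at chr1:12840969-12841118 (- strand) for SADHU2-1, chr3:14750145-14750294 (- strand) for SADHU3-2, chr5:10934581-10934730 (- strand) for SADHU4-1 and chr3:525370-525519 (+ strand) for SADHU6-1. On either strand, CAATCGTT was found in the first 150 bases of 9 of the 15 annotated elements and of 0.404% of 36636 annotated nuclear genes and pseudogenes of at least that length. SADHU2-1, which gave the 8 bases, is counted among the 9, and all 15 belong to the same family. The longest run of identical bases between any 2 of the 15 elements was 39 bases, between SADHU7-1 and SADHU7-2. SADHU4-1 held no full copy of CAATCGTT in its window, which opens with atcgtt, the last letters of that stretch.

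Counted reads ran from 62929193 to 84429119 in the 4 smallest-seedling libraries, with 31002 to 31078 genes detected, and organelle genes took 0.0373 to 0.0482% of the reads. A pair of libraries stood close together. Smallest C24 pool B and the other C24 pool B of batch 1, labelled as separate pools, had the lowest difference of all 630 pairs of libraries at 15 DAS. Over 27851 genes their mean chi-square per gene was 2.61 (median 0.892), against 18.7 for the next pair, so they differed by more than sampling noise, which gives a mean of 1, but by less than any other pools. Results are therefore also given without them. The labels were checked on 112 genes that differed by over 4 log2 units between Ler and C24 both at 15 DAS in batch 2 and at 28 DAS in each batch. The smallest Ler pools held 80.5 and 82.1% (medians) of the batch 2 Ler level of the 42 Ler-abundant genes and 0.883 and 0.718% of the batch 2 C24 level of the 70 C24-abundant genes. The smallest C24 pools held 2.33 and 1.96% of the former and 86.4 and 91.2% of the latter, so all 4 libraries took the side of their label. The other Ler pools of batch 1 did not separate in this way, with medians of 20.6 and 12.7% of the C24 level for the C24-abundant genes and 50.0 and 55.5% of the Ler level for the Ler-abundant genes. The labels name them as Ler, and whether they held Ler plants only was not tested. In those pools 40 and 39 of the 70 genes exceeded 10% of the C24 level, against 1 in each smallest Ler pool.

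**Figure D1:**
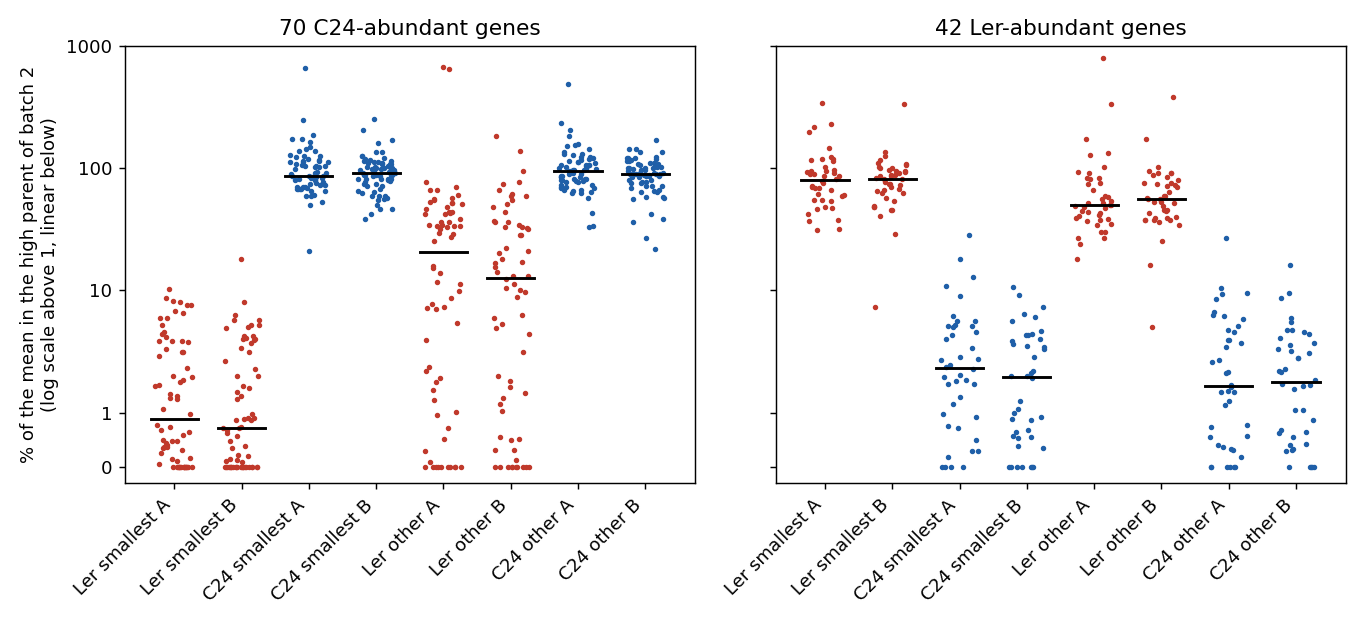
Level of 70 C24-abundant genes (left) and 42 Ler-abundant genes (right) in the 8 parental libraries of batch 1, as a percentage of the mean in the high parent of batch 2 (log axis above 1, linear below). Each point is a gene and the black line the median, and the 2 Ler pools of other seedlings lie at 20.6 and 12.7% on the left where the smallest Ler pools lie below 1%.

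Over all genes, the smallest Ler and C24 seedlings differed at 3206 of 30207 tested genes. In smallest Ler, 1462 genes were higher (4.84% of those tested) and 1744 were lower (5.77%), by edgeR's quasi-likelihood test with Benjamini-Hochberg (BH) adjusted p below 0.05, the threshold for a call throughout. The difference exceeded 2-fold for 682 of the higher and 877 of the lower genes, and 16-fold for 81 and 140. The genes that differed by over 16-fold were of low abundance, with a median of 0.696 CPM, the reads of a gene scaled to the size of its library. Among annotated pseudogenes and transposable elements 16.0% were called and 4.19% differed by over 16-fold, and among protein-coding genes 10.1 and 0.321%. Per chromosome the share called ran from 10.1% on chromosome 3 to 11.2% on chromosome 5. Without smallest C24 pool A 1922 genes were called and without smallest Ler pool A 2052. With the spread estimated from the 4 smallest-seedling libraries alone 712 were called, and from the 8 parental libraries of batch 1 1390. Without both near-identical C24 pools 2670 were called, of which 2149 were calls of the full comparison with the same direction.

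The floral repressor FLC (AT5G10140, chromosome 5, 3173382 to 3179448) was nearly silent in smallest Ler seedlings. It held 0.708 and 0.939 CPM in Ler and 83.4 and 84.8 CPM in C24, a log2 fold change of Ler over C24 of -6.68 ± 0.24 (edgeR, BH adjusted p = 3.92e-14). Here and below, values after ± are standard errors of a log2 fold change with 2 pools a group, and CPM are given for pools A and B in that order. FRI (AT4G00650), which raises FLC, was also lower in Ler, with 6.22 and 6.61 CPM in Ler and 11.3 and 11.6 CPM in C24 (-0.83 ± 0.15, edgeR, BH adjusted p = 0.000352). SOC1 (AT2G45660), a floral activator under FLC, ran the other way with 71.8 and 61.7 CPM in Ler and 14.8 and 9.9 CPM in C24 (2.43 ± 0.49, edgeR, BH adjusted p = 0.00147). The Ler and C24 values of these 3 genes did not overlap, as was so for 13717 of all 30207 tested genes. The 3 calls held without each of the 4 libraries in turn, though that of FRI was lost with the spread estimated from those 4 alone. FT (AT1G65480), the mobile floral signal, held 0.79 and 3.17 CPM in Ler and 0.492 and 0.682 CPM in C24 (1.75 ± 0.50, edgeR, BH adjusted p = 0.0257). Its Ler pools were far apart, and without Ler pool B the difference was 0.44 and the call was lost, as it also was without either C24 pool.

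FLM (AT1G77080) and MAF2 (AT5G65050), close relatives of FLC that also repress flowering, were higher in smallest Ler. FLM held 9.91 and 6.33 CPM in Ler and 2.06 and 1.49 CPM in C24 (2.19 ± 0.36) and MAF2 held 50.8 and 58.2 CPM in Ler and 34.1 and 29.1 CPM in C24 (0.79 ± 0.17). The other relatives MAF3, MAF4 and MAF5 gave 0.04, -0.17 and -0.11 and did not pass. The AP2-type repressors TOE1 and SNZ fell by 0.87 ± 0.23 and 1.05 ± 0.34. In all, 2 of 15 flowering repressors rose and 4 fell (median -0.18, against 0.00 over all tested genes). Of all tested genes 4.84% rose and 5.77% fell. Of 14 flowering promoters 3 rose (SOC1, FT and SPL5) and 0 fell (median 0.48). SPL5, an activator of floral genes, held 7.87 and 6 CPM in Ler and 3.28 and 3.36 CPM in C24. The MAF2 call was lost without C24 pool B, the TOE1 call without either Ler pool B (-0.57) or C24 pool A, the SPL5 call without either C24 pool or Ler pool A, and the SNZ call without each of the 4 in turn. SPL5 shares part of its locus with AT3G15260 and FRI with AT4G00651, and since the sources used here do not state strand, their reads cannot be told apart.

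Of the flower identity genes 4 differed between the accessions. SEP1 (AT5G15800) held 2.89 and 2.84 CPM in Ler and 0.678 and 1.18 CPM in C24 (1.63 ± 0.23, edgeR, BH adjusted p = 2.47e-05), and it overlaps AT5G15790. SEP4 (AT2G03710), of the same subfamily, was lower in Ler, with 4.31 and 4.21 CPM in Ler and 13.9 and 17.8 CPM in C24 (-1.90 ± 0.24, edgeR, BH adjusted p = 5.44e-06). AP1 and AP3, also flower identity genes, rose by 1.84 ± 0.40 and 1.40 ± 0.35. Of 9 flower-organ genes 3 rose and 1 fell, with a median of 0.71, against 4.84% of all tested genes higher and 5.77% lower. The AP1 and AP3 calls were lost without C24 pool A, and the AP3 call also without Ler pool A. The summed level of the 9 genes was 38.5 and 27.5 CPM in Ler and 30.4 and 33.6 in C24, so the sums overlapped.

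**Figure D2:**
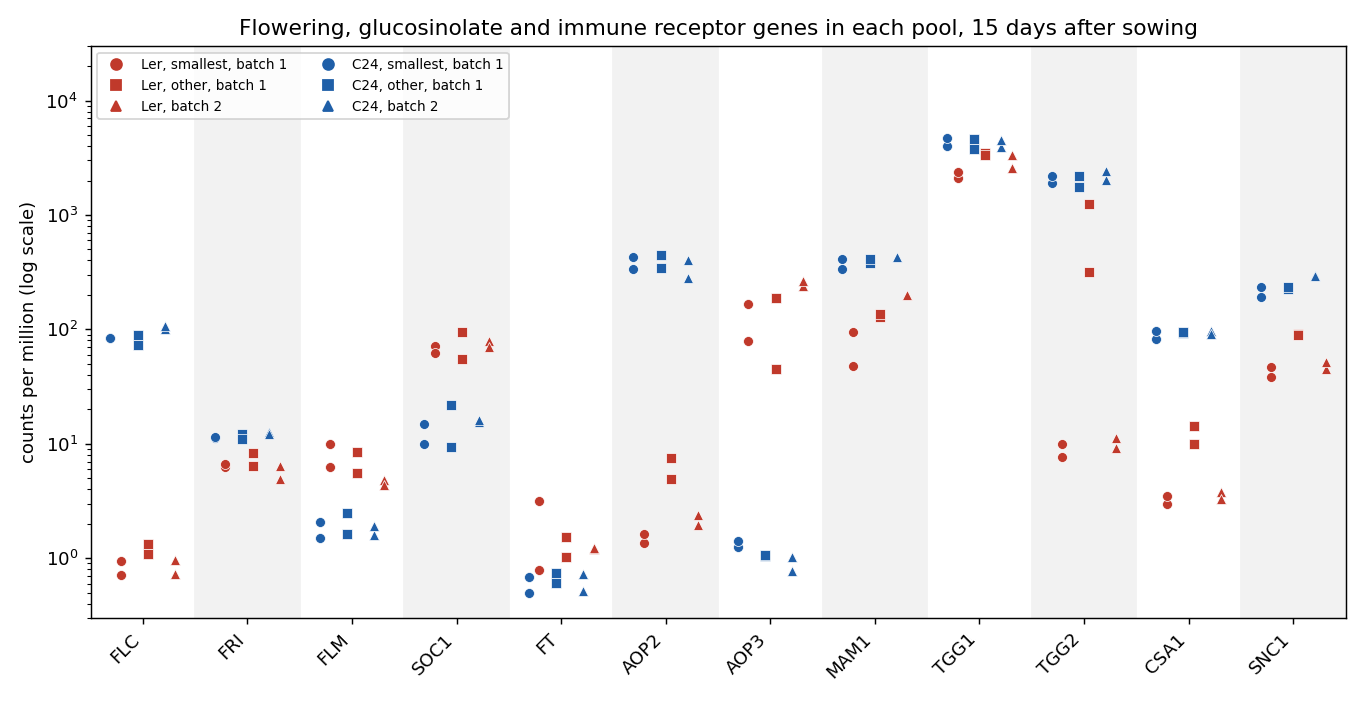
Level in CPM (log axis) of 12 named genes in each pool of Ler (red) and C24 (blue) at 15 DAS, with circles for the smallest seedlings, squares for other seedlings of batch 1 and triangles for batch 2. Ler and C24 circles do not overlap at any of the 12 genes, as at 13717 of all 30207 tested genes. For TGG2 the squares of Ler (1236 and 316 CPM) lie far above the Ler circles (9.86 and 7.62 CPM).

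The sharpest contrasts among defence genes were at the side-chain genes of aliphatic glucosinolates. AOP2 (AT4G03060, chromosome 4, 1351688 to 1354096), whose enzyme forms alkenyl side chains, held 1.37 and 1.64 CPM in Ler and 427 and 336 CPM in C24 (-7.99 ± 0.48, edgeR, BH adjusted p = 1.02e-10). Its neighbour AOP3 (AT4G03050), whose enzyme forms hydroxyalkyl side chains, was the mirror image with 78.8 and 167 CPM in Ler and 1.26 and 1.41 CPM in C24 (6.53 ± 0.60, edgeR, BH adjusted p = 6.75e-08). AOP2 is annotated as a transcribed pseudogene in Columbia. AOP1, next to both, differed by -0.11 ± 0.18 and did not pass. Every AOP2 and AOP3 call held without each library, and the Ler pools differed by more than 2-fold for AOP3.

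Several genes of chain elongation and its regulation were lower in smallest Ler. MAM1 (AT5G23010), a methylthioalkylmalate synthase that lengthens the methionine chain, held 48.2 and 95 CPM in Ler and 339.8 and 416 CPM in C24 (-2.40 ± 0.22, edgeR, BH adjusted p = 4.61e-08). Its near copy MAM3 held 89.4 and 134 CPM in Ler and 138 and 194 CPM in C24 and did not pass (edgeR, BH adjusted p = 0.467), and reads of the 2 copies may be split unevenly in the authors' counts. The MYB regulators MYB29 and MYB76 fell by 1.61 ± 0.19 and 1.61 ± 0.29, while MYB28, the main regulator, held 210.0 and 245 CPM in Ler and 182 and 229.7 CPM in C24. The flavin oxygenase GSOX2 fell by 1.51 ± 0.17, from 12.8 and 12.6 CPM in C24 to 4.66 and 4.25 in Ler. BCAT3 and BAT5, an aminotransferase and a chloroplast transporter of the chain-elongation pathway, fell by 0.61 ± 0.11 and 1.31 ± 0.24. The isomerase subunits IPMI1, IPMI2 and IIL1 fell by 1.29, 0.74 and 0.46, the dehydrogenase IMD1 by 0.70 and CYP79F1, which starts core formation, by 1.27.

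Of the 28 measured aliphatic glucosinolate genes 1 rose and 12 fell, with a median of -0.55, against 4.84% of all tested genes higher and 5.77% lower. The genes of core formation after CYP79F1 gave smaller values, with CYP83A1 at -0.05 ± 0.22, UGT74B1 at -0.19 ± 0.25 and SOT18 at -0.13 ± 0.35, none of which passed. The IMD1 call was lost without Ler pool A, the IPMI1 and CYP79F1 calls without either Ler pool A or C24 pool B, and the IIL1 call without either Ler pool or C24 pool B. For MAM1, BAT5, IMD1, IPMI1 and CYP79F1 pool A was below pool B in both accessions, for example 41.5 against 98.7 CPM in Ler and 130.3 against 207.7 in C24 for CYP79F1. In other parental pools the list was not lower throughout. At 15 DAS 1 gene rose and 8 fell in batch 1 (median -0.44), and 1 rose and 7 fell in batch 2 (0.01). In leaves at 28 DAS 8 rose and 2 fell in batch 1 (0.83), and 9 rose and 2 fell in batch 2 (0.59). Of these 28 genes 0 were called in the test of the difference from batch 2 at 15 DAS and 1 in that from batch 1. Between smallest and other seedlings of batch 1, 3 were called in Ler and 0 in C24. Ages were not compared by a test.

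The myrosinase gene TGG2 (AT5G25980, chromosome 5, 9072708 to 9075777) was abundant in smallest C24 and nearly silent in smallest Ler. It held 9.86 and 7.62 CPM in Ler and 1893 and 2209 CPM in C24 (-7.87 ± 0.44, edgeR, BH adjusted p = 3.45e-11). TGG1 (AT5G26000), the second leaf myrosinase and its near neighbour, held 2095 and 2375 CPM in Ler and 3979 and 4675 CPM in C24 (-0.95 ± 0.19, edgeR, BH adjusted p = 0.00169). ESP, which turns breakdown products into nitriles and epithionitriles, held 1978 and 1598 CPM in Ler and 2924 and 2889.8 CPM in C24 (-0.70 ± 0.19). NSP1, a nitrile specifier, fell by 1.40 ± 0.28, PBP1, a lectin that binds myrosinase complexes, by 1.46 ± 0.27, and the lectin gene JAL23 by 1.14 ± 0.31. Of the 12 measured myrosinase and breakdown genes 0 rose and 6 fell (median -0.63), against 4.84% of all tested genes higher and 5.77% lower. The ESP call was lost without either C24 pool or Ler pool B, the NSP1 call without Ler pool A, and the JAL23 call without C24 pool A or either Ler pool. TGG1 and TGG2 have similar sequences, and reads shared between them cannot be told apart.

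Genes that take up and assimilate sulfur gave 4 falls. Of 19 sulfur assimilation genes 0 rose and 4 fell (median -0.22), against 4.84% of all tested genes higher and 5.77% lower. SULTR2;1, a sulfate transporter of the vasculature, held 60.6 and 36.6 CPM in Ler and 137 and 101 CPM in C24 (-1.29 ± 0.25, edgeR, BH adjusted p = 0.00117). SULTR1;1 fell by 1.31 ± 0.35, APS3 by 0.52 ± 0.16 and GGCT2;1, which breaks down glutathione, by 1.09 ± 0.35. Without Ler pool A the GGCT2;1 value was -1.88 and without Ler pool B -0.58, where the call was lost, and it was also lost without either C24 pool. The SULTR1;1 call was lost without either Ler pool B or C24 pool A, and the APS3 call without either C24 pool or Ler pool B. Among 14 indolic glucosinolate genes 0 rose and 1 fell, the methyltransferase IGMT1, with 1.99 and 1.68 CPM in Ler and 12.3 and 8.66 CPM in C24 (-2.51 ± 0.47).

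Immune receptor genes moved in both directions. CSA1 (AT5G17880) and DAR4 (AT5G17890), which lie side by side and encode a pair of receptor proteins, differed sharply. CSA1 held 2.97 and 3.48 CPM in Ler and 81.9 and 95.9 CPM in C24. DAR4 held 3.16 and 3.26 CPM in Ler and 64.6 and 66.7 CPM in C24. Their log2 fold changes were -4.78 ± 0.19 and -4.35 ± 0.23 (edgeR, BH adjusted p = 9.92e-14 and 1.37e-11). In the RPP5 cluster, SNC1 (AT4G16890) held 38.5 and 46.9 CPM in Ler and 190.3 and 236 CPM in C24 (-2.32 ± 0.34, edgeR, BH adjusted p = 4.78e-05), and RPP4 and RPP5 fell by 0.94 ± 0.30 and 0.90 ± 0.22. These 3 genes are near copies, and their reads may be shared. RPM1 was higher in Ler with 16.7 and 17.5 CPM in Ler and 4.2 and 6.29 CPM in C24 (1.71 ± 0.21), and so was RRS1 (0.70 ± 0.13), while its partner RPS4 gave 0.25 ± 0.18 and did not pass. Of 27 immune receptors 2 rose and 6 fell (median 0.03), against 4.84% of all tested genes higher and 5.77% lower. The RPP4 call was lost without each of the 4 libraries in turn and the RPP5 call without either Ler pool. RPM1 overlaps AT3G07050.

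Hormone, growth and daily-rhythm genes gave few calls, beside 4.84% of all tested genes higher and 5.77% lower. Of 24 salicylic acid genes 0 rose and 1 fell, the transporter EDS5 (-0.70 ± 0.21), a call lost without each of the 4 libraries in turn. The marker PR1 held 194 and 365 CPM in Ler and 460.3 and 291 CPM in C24 (-0.43 ± 1.44, edgeR, BH adjusted p = 0.914), and ICS1, of salicylic acid synthesis, held 19.4 and 17.9 CPM in Ler and 20.9 and 21.2 CPM in C24 (-0.17 ± 0.32). Of 32 auxin genes 1 rose and 1 fell, namely YUC4 of auxin synthesis (0.86 ± 0.19) and the repressor IAA7, with 44.9 and 40.1 CPM in Ler and 106 and 110.3 CPM in C24 (-1.35 ± 0.17, edgeR, BH adjusted p = 7.66e-06). Of 25 gibberellin genes GA1, of early synthesis, rose (0.91 ± 0.26) and GA2OX1, which inactivates the hormone, and GA3 fell (-1.39 ± 0.22 and -0.53 ± 0.15). Of 17 PIF and shade genes 1 rose, PIF3 (0.57 ± 0.17). The light-response factor PIF4 held 70.5 and 26.1 CPM in Ler and 105 and 29.2 CPM in C24, where pool A exceeded pool B in both accessions. The same order held for the clock genes CCA1 (115 and 72.4 CPM in Ler and 105 and 67.6 CPM in C24) and LHY (30.8 and 20.6 CPM in Ler and 29 and 21.2 CPM in C24) and for the flavonoid gene CHS (158 and 50.4 CPM in Ler and 190.4 and 41.8 CPM in C24), and none of these 4 differed between the accessions by the test. Calls were 0 among 24 clock, 31 photosynthesis, 18 leaf size, 22 flavonoid, 26 jasmonate, 17 ethylene, 16 cold and drought and 15 heat-shock genes. Over all tested genes 3200 had an unadjusted p under 0.05 in the higher direction and 3559 in the lower.

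Cell division genes included 1 rise and 4 falls among 33. Over all tested genes 4.84% were higher and 5.77% lower, the shares to set beside each list in this paragraph. CDKB1;2 (AT2G38620), a mitotic kinase, held 2.71 and 2.93 CPM in Ler and 7.64 and 7.05 CPM in C24 (-1.38 ± 0.14, edgeR, BH adjusted p = 2.33e-07), and it overlaps AT2G38630. PCNA2, the DNA replication clamp, fell by 0.61 ± 0.12, and the cyclins CYCB2;1 and CYCD3;3 by 0.67 ± 0.21 and 0.42 ± 0.13. The cytokinesis syntaxin KN rose by 0.49 ± 0.14. The list's median was -0.01. Of 21 cell wall loosening genes 2 fell (XTH8 by 0.78 ± 0.23 and XTH5 by 0.44 ± 0.10), and of 14 senescence genes 2 rose, the protease regulator ERD1 (0.73 ± 0.18) and PPH of chlorophyll breakdown (0.45 ± 0.12). ERECTA, the receptor kinase for which Ler is named, held 113 and 116 CPM in Ler and 111 and 129 CPM in C24 (-0.07 ± 0.13, edgeR, BH adjusted p = 0.836). The calls of CYCB2;1 (-0.42 without C24 pool A), CYCD3;3, KN, XTH5, XTH8, ERD1, PPH (0.30 without C24 pool A), PIF3, YUC4, GA1, GA3 (-0.29 without C24 pool A) and CLV1, of the shoot meristem, were each lost without at least C24 pool A.

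Markers of other tissues moved with some of these lists. Of 11 root genes 0 rose and 3 fell (EXPA7, EXPA18 and LRL3), and their summed level was 84.4 and 91.7 CPM in Ler and 137 and 100.5 in C24. None of the 11 was at 0 in any of the 4 pools. Over all tested genes 4.84% were higher and 5.77% lower. EXPA18 held 0.366 and 0.768 CPM in Ler and 4.13 and 0.806 CPM in C24, and without C24 pool A its difference was -0.52 and the call was lost, as it also was without Ler pool A. LRL3 also lost its call without C24 pool A. Of 10 shoot meristem genes 1 rose, CLV1 (0.55 ± 0.15), with summed levels of 138 and 147 CPM in Ler and 107 and 108 in C24. Of the 5 trichome, 12 seed and 5 leaf genes 0 were called, and the leaf genes summed to 28667 to 37640 CPM. The part of root or meristem tissue in the other results was not tested.

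**Figure D3:**
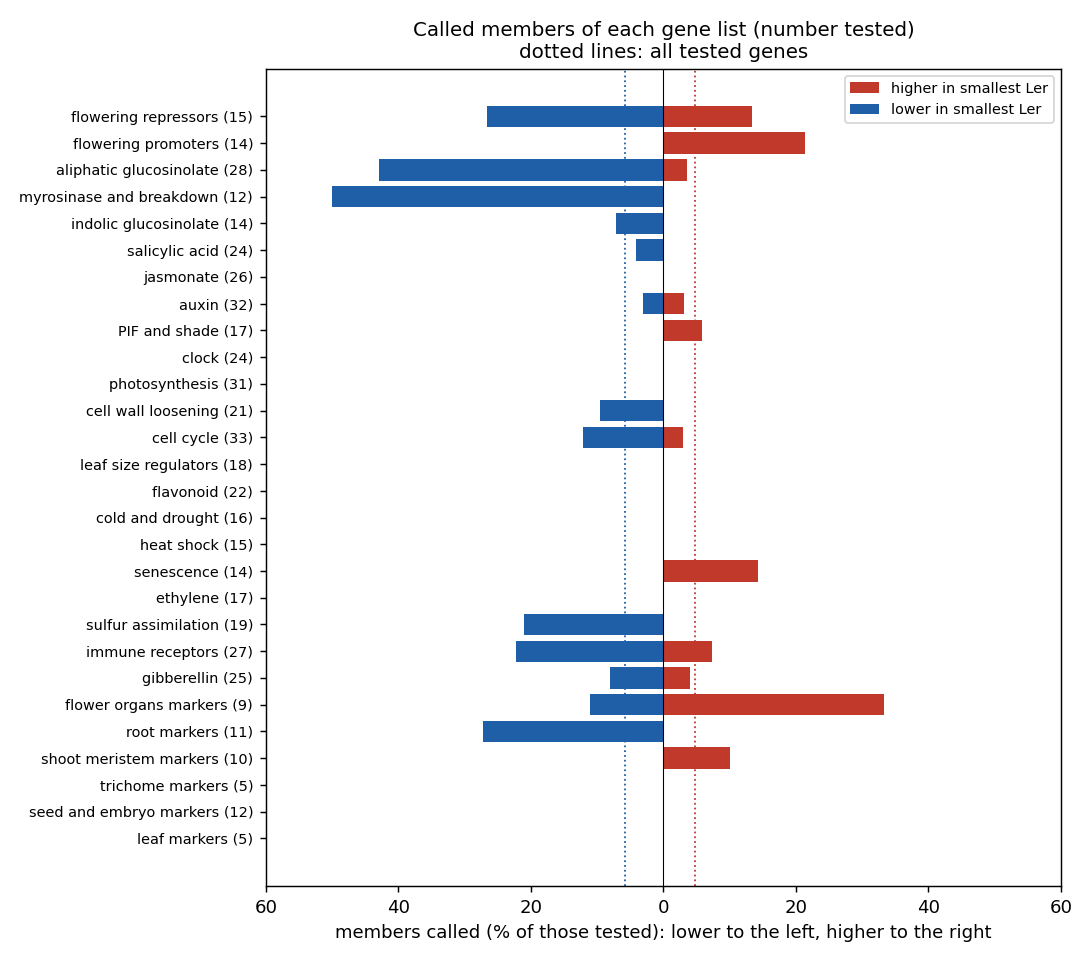
Share of each gene list's tested members that were called higher (red, right) or lower (blue, left) in smallest Ler than in smallest C24, with the number tested in brackets and dotted lines at the shares of all tested genes (4.84 and 5.77%). The longest bars to the left are myrosinase and breakdown (6 of 12) and aliphatic glucosinolate (12 of 28), and 8 pathway lists have no bar.

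Of the 24 largest rises and falls named by rule, 15 are annotated as pseudogenes. AT4G08093 on chromosome 4, annotated as a pseudogene, held 0 reads in both Ler pools and 14.9 and 13.2 CPM in C24, at least 726-fold lower in Ler against a floor of 3 reads over the group. It opens the longest run of neighbouring tested genes called in 1 direction, 10 genes from AT4G08093 to AT4G08145 (4990153 to 5139725), all lower in Ler. SADHU2-1 and the overlapping AT1G35110 also held 0 reads in Ler. In C24, SADHU2-1 held 7.06 and 10.1 CPM and AT1G35110 6.4 and 8.73 CPM. AT1G42705 on chromosome 1 showed the reverse, with 0 reads in C24 and 2.28 and 1.96 CPM in Ler, at least 98.8-fold higher in Ler. Among protein-coding genes ARGAH2, an arginase, held 97.2 and 13 CPM in Ler and 0.704 and 0.108 CPM in C24 (7.03 ± 1.28, edgeR, BH adjusted p = 0.000566), with a wide gap between the Ler pools. Its value was 4.95 without Ler pool A and 8.97 without C24 pool A. The call was lost with only the 4 smallest-seedling or only the 8 parental libraries of batch 1 in the fit, as were those of BCAT3, PCNA2 and SULTR2;1. AT3G44070, a glycosyl hydrolase of family 35, held 19.7 and 25.4 CPM in Ler and 0.292 and 0.263 CPM in C24 (6.33 ± 0.41). AT2G25510, an uncharacterized protein gene, held 0.613 and 0.483 CPM in Ler and 256 and 347 CPM in C24 (-9.09 ± 0.84), and AT3G61010, annotated as ferritin-like, held 0.165 and 0.213 CPM in Ler and 66.4 and 54.2 CPM in C24 (-8.32 ± 0.30). Each of these calls held without each library, as did the other members of the 12 largest rises and falls, since the naming rule required it. Without C24 pool A the fitted value of AT4G07507, a pseudogene, went from 7.57 to 11.72. Of the 12 rises AT3G31005 and AT3G31023 overlap each other and AT2G24760 overlaps AT2G24755.

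In all, 40 runs of at least 4 neighbouring tested genes were called in the same direction, 18 higher and 22 lower, holding 194 genes. Besides the run on chromosome 4 they included 9 genes higher in Ler from AT1G72820 to AT1G72880 (median 1.45), 7 higher from AT3G29440 to AT3G29515 (1.40) and 6 lower from TGG2 to AT5G26020 (-1.72), which includes TGG1. The methylation-reader genes VIM2 and VIM4 lay in a run of 5 higher genes from AT1G66030 to AT1G66060 (1.33). CSA1 and DAR4 lay in a run of 4 lower genes (-2.75). Reads of overlapping genes or near copies within such runs cannot be told apart.

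Within the Sadhu family 7 of the 14 tested elements were lower in smallest Ler and 3 were higher. Among all annotated pseudogenes and transposable elements 16.0% were called in either direction. The family was chosen for its values, so its count is a description only. Levels in C24 exceeded those in Ler for SADHU2-1 (0 reads in Ler against 7.06 and 10.1 CPM, at least 442-fold lower in Ler). SADHU3-2 held 0.165 and 0.156 CPM in Ler and 30.1 and 26.5 CPM in C24 (-7.44 ± 0.48), SADHU1-2 1.62 and 2.01 CPM in Ler and 30 and 27.5 CPM in C24 (-3.99 ± 0.40) and SADHU10-1 2.38 and 3.13 CPM in Ler and 36.2 and 36.5 CPM in C24 (-3.72 ± 0.20). SADHU3-1, SADHU1-3 and SADHU7-1 fell by 2.89 ± 0.29, 2.51 ± 0.17 and 0.74 ± 0.15. The Ler-abundant elements were SADHU5-2, with 6.03 and 9.91 CPM in Ler and 0.146 and 0.108 CPM in C24 (5.94 ± 0.43), SADHU6-1, with 25.7 and 29.7 CPM in Ler and 1.08 and 0.806 CPM in C24 (4.87 ± 0.36), and SADHU4-1, with 14.5 and 14.1 CPM in Ler and 1.69 and 1.43 CPM in C24 (3.19 ± 0.19). All 10 had BH adjusted p of 0.002 or less (edgeR). SADHU5-1, SADHU8-1 and SADHU9-1 held at most 2.08 CPM in the 4 pools and did not pass, and neither did SADHU1-1, which overlaps AT2G10405, with 0 reads in Ler and 0.199 and 0 CPM in C24. The SADHU7-1 call was lost without either Ler pool A or C24 pool B (-0.48), and SADHU7-1 overlaps AT3G13440. SADHU2-1 opens with CAATCGTT by definition, since it gave that stretch. SADHU3-2, also abundant in C24, opens with it, and so does SADHU6-1, which was abundant in Ler. Of the other called elements, SADHU1-3, SADHU3-1 and SADHU10-1, higher in C24, held it within their first 150 bases. SADHU1-2 and SADHU7-1, also higher in C24, did not, and neither did SADHU4-1 and SADHU5-2, higher in Ler. A link between the stretch and the level was not tested.

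**Figure D4:**
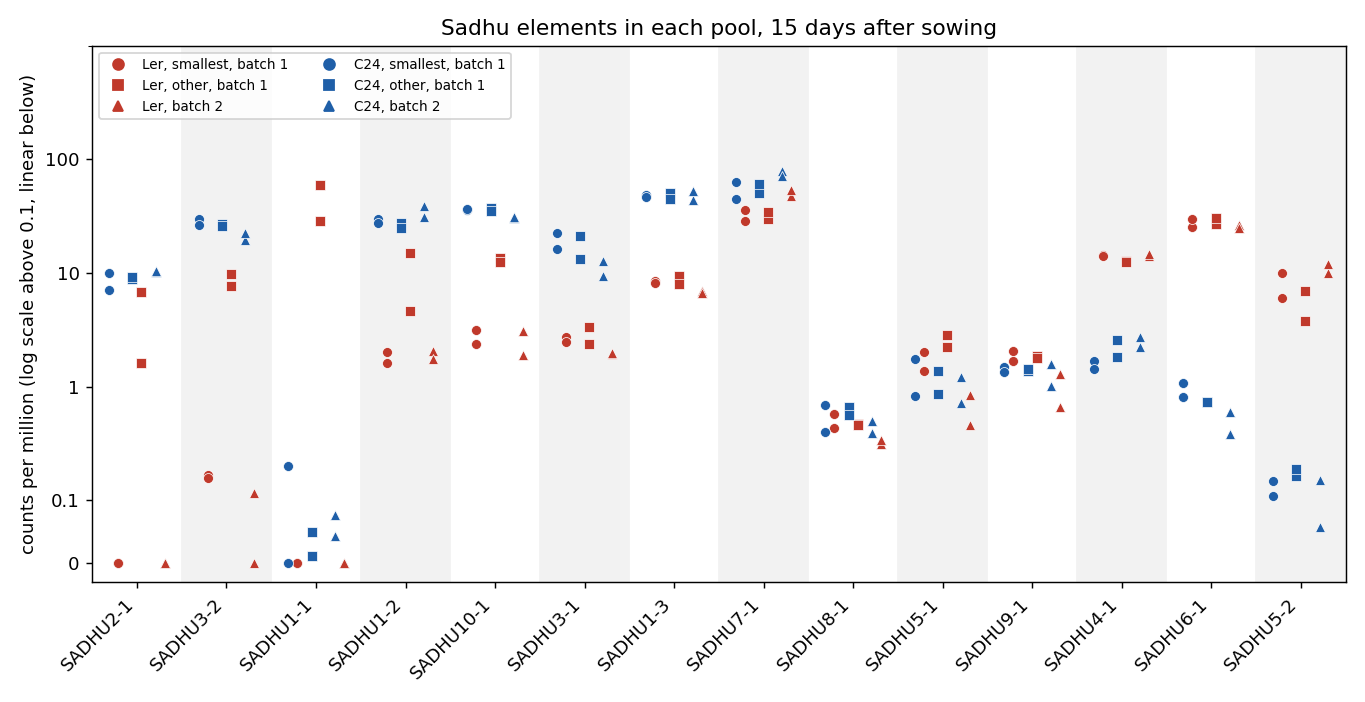
Level in CPM of 14 Sadhu elements in each pool (log axis above 0.1, linear below), ordered by the log2 fold change of smallest Ler over smallest C24, with Ler in red, C24 in blue, circles for smallest, squares for other batch 1 and triangles for batch 2 seedlings. SADHU1-1 is at 28.8 and 59.8 CPM in the other Ler pools of batch 1 and at 0 in both smallest Ler pools.

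The same direction was compared with parents that share no library with the smallest pools. Of the genes higher in smallest Ler, 1001 were also called higher in Ler of batch 2 at 15 DAS (68.5% of the former and 36.9% of the latter), and of the genes lower 1208 were called lower (69.3 and 40.9%). In that comparison 18.8% of genes were called in either direction, and 3 rises and 3 falls had the opposite call. Across 23966 genes averaging 1 CPM or more the 2 sets of log2 fold changes had r = 0.80, as a description across genes that share annotation, length and mapping reference. With the other parents of batch 1, in which 6.58% of genes were called, 766 rises and 659 falls were shared (52.4 and 37.8% of those in smallest seedlings, 65.6 and 80.5% of those in batch 1). One of its C24 pools is the near-identical library, so those shares are not independent. In leaves at 28 DAS 13.5% of genes were called in batch 1, and the smallest seedlings shared 578 rises and 655 falls with them (42.5 and 40.4% of those also tested at that age, 30.7 and 35.3% of those in the leaves). Batch 2 leaves had 13.1% of genes called and shared 541 rises and 666 falls (39.8 and 41.1%, and 32.0 and 34.5% of those in the leaves). Of the 1462 rises 310 had the same call in all 4 of these parent comparisons and 233 in 0, and of the 1744 falls 302 and 360. FLC, FRI, FLM, SOC1, AOP2, AOP3, TGG2, CSA1, SNC1 and RPM1 were among those called in all 4, and SULTR2;1 among those called in 0.

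**Figure D5:**
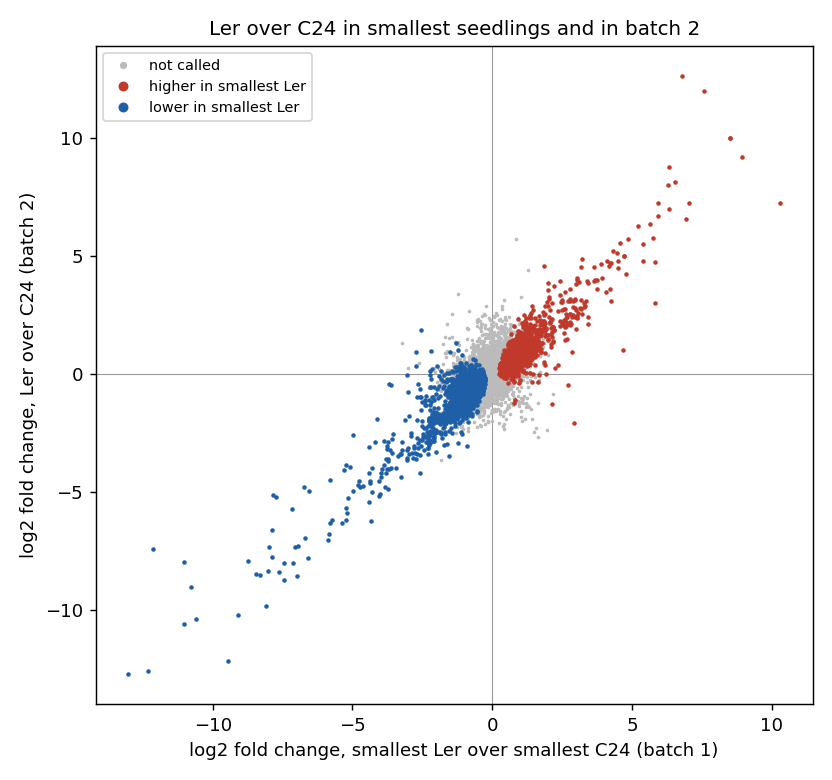
Log2 fold change of Ler over C24 in the smallest seedlings (x axis) and in batch 2 (y axis) for genes averaging 1 CPM or more over the 4 smallest-seedling libraries, with calls of the smallest-seedling comparison in red (higher) and blue (lower). Most called genes lie in the lower left and upper right quadrants (r = 0.80 over 23966 genes).

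Whether small seedlings differed from others of their accession was tested within batch 1. Smallest C24 against other C24 gave 0 calls (0.00%) with edgeR and with DESeq2, with 450 genes (edgeR) and 343 (DESeq2) at an unadjusted p under 0.05. The near-identical pair sits in this comparison. Without smallest C24 pool B there were again 0 calls with edgeR, with 1237 genes under an unadjusted 0.05, and without the other C24 pool B 0 calls, with 748. Smallest Ler against other Ler gave 31 genes higher and 362 lower (1.30%). That comparison rests on the other Ler pools, which hold C24-abundant transcripts. Of the 362 genes 209 were lower in Ler than in C24 of batch 2 and 16 were higher, where 9.78% of all tested genes were lower and 8.99% higher. AT2G11240, a pseudogene, held 0 reads in smallest Ler and in Ler of batch 2, and 98.7 and 219 CPM in other Ler of batch 1, beside 0 and 0.0473 CPM in other C24 of batch 1 and 0.558 and 0 in smallest C24. TGG2 held 1236 and 316 CPM in other Ler of batch 1 and 11.3 and 9.23 in batch 2, beside 9.86 and 7.62 in smallest Ler. FLC stayed low in all Ler pools (1.34 and 1.08 in other Ler of batch 1, 0.734 and 0.968 in batch 2). The part of these transcripts in the differences was not tested.

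The genes higher in smallest than in other Ler were led by TH7, a thioredoxin (1.96 ± 0.46), and NRAMP4, a vacuolar exporter of iron and manganese. NRAMP4 held 136 and 203 CPM in smallest Ler, 51.2 and 49.6 in other Ler of batch 1 and 39.7 and 38.5 in batch 2 (1.75 ± 0.36 within batch 1, edgeR, BH adjusted p = 0.0104). In C24 it held 44.1 and 66.5 CPM in the smallest and 35.9 and 65.8 in other seedlings. AT5G17090, of a cystatin family, held 6.71 and 5.59 CPM in smallest and 2.67 and 3.01 in other Ler (1.11 ± 0.19), but 5.93 and 3.87 in Ler of batch 2. AT1G13680 (1.24 ± 0.31), AT2G14490 (1.34 ± 0.32, 0.67 without smallest Ler pool B) and AT5G20736 (1.05 ± 0.19, 0.70 without other Ler pool A) completed the 6 largest. The TH7 call was lost without each of the 4 Ler pools in turn. Those of NRAMP4, AT2G14490 and AT1G13680 were lost without smallest Ler pool B and without either other Ler pool, and those of AT5G17090 and AT5G20736 without other Ler pool A. The total of 393 calls fell to 236 without smallest Ler pool A, 258 without smallest Ler pool B and 252 without other Ler pool A.

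The test of the difference itself asked where the contrast between accessions was not the same in smallest and in other seedlings. Against the other parents of batch 1 it called 155 genes (0.513%), 2 higher and 153 lower, and this test rests on the same other Ler pools. Against the parents of batch 2 it called 32 genes (0.106%), 18 higher and 14 lower. The second comparison also differs in batch, and small size and batch cannot be told apart there. AT3G25190, an iron transporter of the vacuolar type, held 2.78 and 3.56 CPM in Ler and 4.53 and 3.29 CPM in C24 in the smallest seedlings and 11 and 11.1 CPM in Ler and 2.06 and 1.75 in C24 of batch 2 (difference -2.84 ± 0.38, edgeR, BH adjusted p = 0.00257). MBP1, a lectin of myrosinase complexes, held 24.1 and 31.8 CPM in Ler and 27.5 and 16.7 CPM in C24 and, in batch 2, 28.9 and 31.4 CPM in Ler and 3.9 and 4.31 in C24 (difference -2.54 ± 0.49). The AT3G25190 call held without each of the 8 libraries in turn. The calcium-dependent kinase CPK31 and the cyclic nucleotide-gated channel CNGC11 had positive differences of 1.95 ± 0.37 and 2.16 ± 0.42. CPK31 held 13.6 and 9.94 CPM in Ler and 7.8 and 8.68 CPM in C24 in the smallest seedlings and 6.07 and 5.24 CPM in Ler and 14.6 and 16.1 in C24 of batch 2. The MBP1, CPK31 and CNGC11 calls were lost without smallest Ler pool A, smallest C24 pool A or any of the 4 parental pools of batch 2, the MBP1 call also without smallest Ler pool B and the other 2 also without smallest C24 pool B. In place of 32 calls there were 5 without smallest Ler pool A, 17 without smallest Ler pool B and 3 without smallest C24 pool A. There were 5 and 10 without Ler pools C and D of batch 2, and 14 and 13 without its C24 pools C and D.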

How the data were processed

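RNA was sequenced from 36 libraries at 15 DAS and 28 at 28 DAS. Per the labels and the submitters' processing notes, the authors checked reads with FastQC, mapped them to TAIR10 and deposited raw counts per gene for 33321 rows. The mapper, the counter and strand handling are not stated in those sources. Only the raw counts of each age were used, not the authors' normalised tables. Counts were analysed with edgeR 4.0.16 and limma 3.58.1 in R 4.3.3. Genes were kept by filterByExpr, libraries scaled by TMM, and all groups of an age fitted in 1 quasi-likelihood model (30207 genes, biological coefficient of variation 0.177, at 15 DAS, and 27844 at 28 DAS). P-values were adjusted by Benjamini-Hochberg. Standard errors are the log2 fold change over the square root of F. CPM are TMM-scaled.

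Members and lists were chosen with earlier results of these data known. Named genes were the 12 largest rises and 12 largest falls with a mean of at least 1 CPM, no overlap and calls held without each library, up to 6 called members of each of 28 lists, a fixed set of genes, and the 6 largest rises and falls of each other comparison. Other members of lists and the Sadhu family were named after their values were seen, and 1 called list member is not reported here. Symbols and coordinates came from RefSeq TAIR10.1, which held 32565 of the rows. Alternatives were DESeq2 1.42.0, its size factors, no filter, nuclear genes, subsets of libraries, a replicate block and each library left out.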

Additional observations from a re-analysis of the deposited data

Results flagged for a closer look

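The contrast of Ler over C24 differed by its own test (edgeR, BH adjusted p below 0.05) between the smallest seedlings and the other seedlings of batch 1 for AT2G11240 (-20.01 log2 units), AT4G07825 (-18.08), SADHU1-1 (-16.41), SADHU2-1 (-11.19), AT1G35110 (-11.04) and AT2G06950 (-10.08). All 6 had reads in the other Ler pools of batch 1 and 0 to 0.059 CPM in the smallest Ler pools, so the fitted values depend on the prior count and are no bounds. In C24, SADHU2-1 and AT1G35110 held 6.4 to 10.1 CPM in the smallest and other seedlings of batch 1, and the other 4 held at most 0.558 CPM. Without smallest C24 pool A the calls of AT2G11240 (-12.58), SADHU1-1 (-10.43) and AT4G07825 were lost. CYP97B3, a carotenoid hydroxylase, was the largest rise (0.94), with 88.3 and 86.7 CPM in Ler and 82.6 and 94.3 CPM in C24 in the smallest seedlings and 44 and 57.7 CPM in Ler and 104 and 93.7 in C24 of the others, and its call was lost without each of the 4 smallest-seedling libraries in turn, without other Ler pool A and without either other C24 pool.

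Against batch 2 the contrast was lower in the smallest seedlings for AT3G25190 (-2.84), AT1G62510 of the lipid-transfer family (-2.71), AT1G54020, a lipase of the GDSL type (-2.61), MBP1 (-2.54), AT5G28450 of the chlorophyll-binding family (-2.53) and AT3G05400, a transporter of the major facilitator superfamily (-2.41). It was higher for the pseudogenes AT1G35735 (1.93), AT1G35745 (2.15) and AT5G28110 (3.301), for CPK31 (1.95), the wall-associated kinase gene AT1G69730 (2.01) and CNGC11 (2.16). Of these 12 calls, those of AT3G25190 and AT5G28110 held without each library in turn. The other 10 were each lost without smallest Ler pool A, without smallest C24 pool A and without Ler pool C of batch 2. AT1G69730 overlaps AT1G69720.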

How the results depend on the processing

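Of 130 named results 0 reversed under the alternatives tried, and 69 kept their side of the threshold in each that gave a value. These were 59 of 99 on smallest Ler against smallest C24 and 5 of 12 on smallest against other Ler. The rest were 3 of 7 on the difference from batch 1 and 2 of 12 on that from batch 2. The largest rises and falls between the smallest seedlings were named only if their calls held without each library. Part of their stability was therefore set by the naming rule. Results not called in the full fit, such as LHY and ERECTA, count as kept because they stayed uncalled. The count of calls moved from 3206 to 712 with only the 4 smallest-seedling libraries (701 of them calls of the full fit) and to 1390 with only the 8 parental libraries of batch 1, which leave fewer libraries to estimate the spread. Among named calls that held without each library in turn, those of ARGAH2, BCAT3, PCNA2 and SULTR2;1 were lost in both of these fits. Those of FRI, TGG1, SEP1, RRS1, PBP1, EXPA7 and GA2OX1 were lost with the 4 libraries alone. Leaving out 1 library gave 1922 to 2620 calls. DESeq2 gave 3565, no filter 3139 and leaving out the other Ler pools of batch 1 3238. Smallest against other Ler gave 236 to 372 calls without 1 library, and smallest against other C24 gave 0 throughout. The difference from batch 1 gave 104 to 184 calls without 1 library and 101 without the near-identical C24 pair, and with batch 2 parents in place of batch 1 it gave 32. The difference from batch 2 gave 3 to 44 calls without 1 library, 147 with DESeq2 and 60 with the pool letter as a replicate block. The causes of these moves in the differences were not tested.

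Pools A and B share only a letter across groups. Their deviations correlated among the 4 parental groups of batch 1 (r from 0.32 to 0.57, over genes), and the replicate block gave 4063 calls between the smallest seedlings, 468 between the Ler groups, 0 between the C24 groups and 171 in the difference from batch 1. Among the named results the block ended the calls of GGCT2;1 and, between the Ler groups, of AT1G13680, and no other. The pair of near-identical libraries and the Ler pools left out were alternatives chosen after the data were seen. Each group had 2 pools, which limits every comparison, and a gene at 0 reads in a group is given against a floor of 3 reads.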
